A study of Mus musculus with 5 samples.

Results

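The mRNA levels of 10 genes of glucose uptake, glycolysis and the response to low oxygen were measured in the mandible of mice at embryonic day 10.5. They were found by gene symbol in a count table of 23441 rows, 27 of them with symbols turned into dates, and all 10 were in it: Slc2a1, Slc2a3, Hk1, Hk2, Pfkl, Tpi1, Pgk1, Ldha, Ndrg1 and Vegfa. All 10 also passed the filter on low counts, which left 12710 genes. The 2 dCKO libraries were labelled Wnt1Cre; Yapf/f, Tazf/f, on a C57BL/6J x CBA/J; 129SvEv background. The 3 control libraries were labelled Yapf/f, Tazf/f, with no Cre named, on a 129SvEv background. All 5 therefore carried the floxed Yap and Taz alleles, and strain background and genotype cannot be told apart. The dCKO libraries were also the deeper ones, with 11346480 and 13298973 reads, against 6491137 to 7439419 in controls. Wnt1Cre is active in the premigratory neural crest, so the endothelium, blood, mesoderm and surface epithelium of the arch lie largely outside the cells in which it deletes. The libraries came from poly(A) RNA, and the labels do not say whether each is a separate embryo, so the spread behind each p-value is that between libraries and may be technical.

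Glucose enters cells through facilitative carriers of the SLC2A family, is trapped by hexokinases as glucose-6-phosphate, and is split and oxidised to pyruvate by the glycolytic enzymes. Lactate dehydrogenase A then turns pyruvate into lactate and regenerates NAD+. When oxygen is low, the alpha subunit of hypoxia-inducible factor (HIF) escapes degradation, pairs with ARNT and binds short promoter motifs of many of these genes and of Vegfa, which encodes the main growth factor of blood vessels. Mammalian embryos of this stage are known to rely strongly on glycolysis. Red blood cells also depend on it, and take up glucose through SLC2A family carriers.

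The sequence that carries a HIF motif is shown for 3 of the genes, 1 that rose in dCKO tissue and a pair that did not pass the test. Each is the RefSeq (GRCm38.p6) stretch of 250 bases that ends just before an annotated transcription start, on the gene's own strand and 5′ to 3′. Capitals mark ACGTG or GCGTG, the core letters of the HIF motif, or their reverse complements. The windows are chr4:119108495-119108744 (+ strand) for Slc2a1, chrX:106186850-106187099 (+ strand) for Pgk1 and chr7:46845554-46845803 (+ strand) for Ldha.
Slc2a1: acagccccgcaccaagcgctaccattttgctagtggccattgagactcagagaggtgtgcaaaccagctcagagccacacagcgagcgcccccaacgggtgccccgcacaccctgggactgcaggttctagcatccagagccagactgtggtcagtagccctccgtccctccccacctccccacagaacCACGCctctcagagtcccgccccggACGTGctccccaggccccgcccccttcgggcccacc
Pgk1: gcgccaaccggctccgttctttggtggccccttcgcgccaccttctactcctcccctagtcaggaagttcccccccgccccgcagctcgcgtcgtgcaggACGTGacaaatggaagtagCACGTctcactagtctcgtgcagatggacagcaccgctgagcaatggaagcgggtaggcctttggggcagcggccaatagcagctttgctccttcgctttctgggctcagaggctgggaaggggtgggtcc
Ldha: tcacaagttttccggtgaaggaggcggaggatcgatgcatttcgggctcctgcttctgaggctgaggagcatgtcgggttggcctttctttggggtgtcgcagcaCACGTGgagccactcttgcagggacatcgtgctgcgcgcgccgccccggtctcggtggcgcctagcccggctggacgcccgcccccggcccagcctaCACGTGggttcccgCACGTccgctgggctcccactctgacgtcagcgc
The Slc2a1 window held 2 matches, 61 and 36 bases before the start, and the Pgk1 window also held 2, at 150 and 131 bases. The Ldha window held 5 matches, of which 4 come from a pair of CACGTG palindromes read on both strands. Of the 10 genes, 8 had a window in the RefSeq table, Slc2a3 and Ndrg1 having none. Counting every annotated start, 7 of these 8 genes had a match in some window, Tpi1 being the exception, and 8 of their 11 windows did. A match was present in 38.6% of all 32851 promoter windows of the same length and in 56.1% of the 12123 windows of tested genes. These shares count windows, so they stand beside the 8 of 11 windows and not beside the 7 of 8 genes. Genes that rose (Slc2a1, Hk1 and Pfkl) and genes that did not pass the test (Hk2, Pgk1, Ldha and Vegfa) both had matches. For Hk1 and Vegfa the matches lay only in the window of the start further into the gene, and the window of the outer start held 0. Whether these inner windows act as promoters was not tested.

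Of the 10 genes, 6 rose in dCKO tissue and 0 fell (edgeR, adjusted p below 0.05 after Benjamini-Hochberg correction over all genes). Over all genes tested, 5.0% were called higher and 1.42% lower. The genes were chosen with earlier results of these data known, so the set's share is a description. The 6 were the glucose carriers Slc2a1 and Slc2a3, hexokinase 1, the enzyme genes Pfkl and Tpi1, and Ndrg1. Hk2, Pgk1, Ldha and Vegfa did not pass. DESeq2 and limma-voom also called 6 higher and 0 lower. At an unadjusted p below 0.05 stood 7 of the 10, against 21.5% of all genes tested. The median log2 fold change of the 10 was 0.45, against −0.001 over all genes tested. In 8 of the 10 both dCKO libraries lay above all 3 controls, as 19.0% of all genes did, and in 0 both lay below, as 18.6% did. The 2 that overlapped were Hk2 and Pgk1. Transcripts of the embryonic globin genes Hba-x, Hbb-y and Hbb-bh1, a sign of red blood cells, made up 7.43% and 5.30% of counts in dCKO libraries. In controls they made up 0.441%, 0.355% and 0.335%. In bulk tissue more cells of a type and more RNA per cell cannot be told apart, and the part of blood cells in the changes of these genes was not tested.

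**Figure D1:**
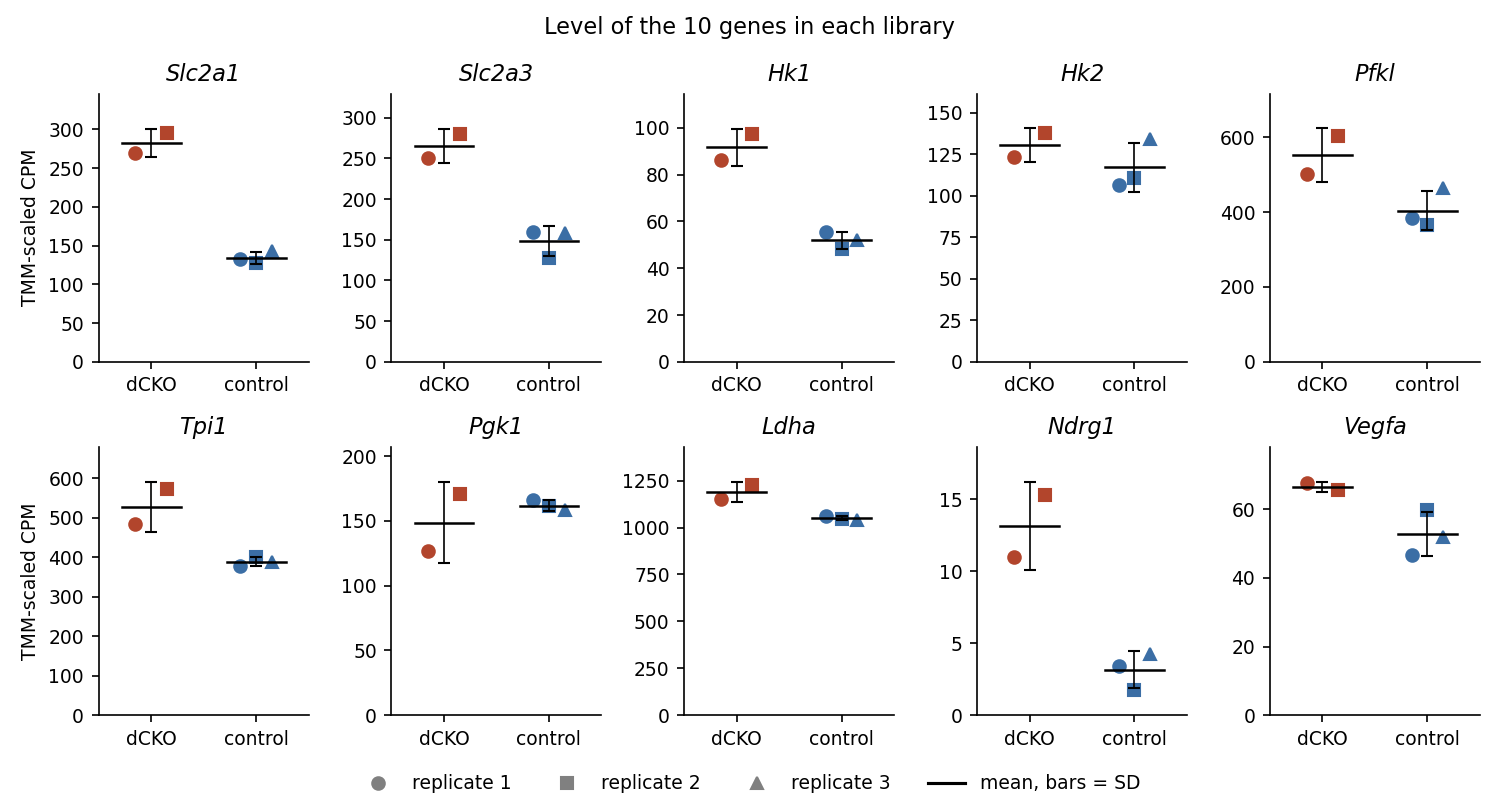
Level of each of the 10 genes in TMM-scaled CPM (linear axes from 0) in the 2 dCKO libraries (left) and 3 control libraries (right). Symbols give the replicate number, horizontal lines the mean and bars the SD; the groups stand apart in all panels but those of Hk2 and Pgk1.

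Both glucose carriers rose. Slc2a1 encodes GLUT1, the basal carrier of many embryonic tissues, abundant in human red cells. Levels are given in CPM, read counts scaled to a common library size with the TMM method. Slc2a1 stood at 269.8 and 295.6 CPM in dCKO tissue, against 133.0, 127.1 and 142.8 CPM in controls. Both dCKO libraries were far above every control, and the spread within each group was small beside the gap. The log2 fold change was 1.07 (SE 0.12, edgeR adjusted p = 2.48e-06), a fold of 2.11. Slc2a3 encodes GLUT3, a carrier of high glucose affinity known from neurons and the placenta. It stood at 250.6 and 280.4 CPM in dCKO tissue, against 159.9, 127.7 and 158.0 CPM in controls. The groups did not overlap, and control replicate 2 was the lowest of the 5 libraries. The log2 fold change of Slc2a3 was 0.84 (SE 0.13, edgeR adjusted p = 1.66e-04). Slc2a3 gave 48.2% and 48.7% of the reads of the pair Slc2a1 and Slc2a3 in dCKO tissue, against 54.6%, 50.1% and 52.5% in controls. The means were 48.4% ± 0.38 (SD, n = 2) and 52.4% ± 2.25 (SD, n = 3), and an exact two-sided permutation test gave p = 0.2, the smallest that 2 against 3 libraries allow. The exact (Clopper-Pearson) 95% binomial interval of dCKO replicate 2, 47.5% to 49.8%, met that of control replicate 2, 47.8% to 52.4%, and these intervals cover counting error only.

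Of the 2 hexokinase genes, Hk1 rose and Hk2 did not pass the test. Hk1, the hexokinase of most tissues, which also has a transcript particular to red cells, stood at 86.2 and 97.4 CPM in dCKO tissue, against 55.6, 48.2 and 52.1 CPM in controls. Every dCKO library was above every control, and the log2 fold change was 0.82 (SE 0.13, edgeR adjusted p = 1.80e-04). Hk2, the hexokinase of muscle and fat that HIF is known to induce, stood at 123.5 and 137.6 CPM in dCKO tissue, against 106.7, 110.6 and 134.1 CPM in controls. Control replicate 3 lay between the dCKO libraries, so the groups overlapped. The log2 fold change of Hk2 was 0.16 (95% interval −0.12 to 0.43, edgeR adjusted p = 0.515), an interval that holds both no change and a rise, and that lies below the interval of Hk1, 0.56 to 1.09. Hk2 gave 58.9% and 58.6% of the reads of the pair Hk1 and Hk2 in dCKO tissue, against 65.7%, 69.7% and 72.0% in controls. The means differed by −10.4 percentage points (dCKO minus control), 58.7% ± 0.23 (SD, n = 2) and 69.2% ± 3.17 (SD, n = 3). An exact two-sided permutation test gave p = 0.2, the smallest this design allows. RefSeq lists a non-coding gene named as antisense to Hk1, Hk1os, whose overlap with Hk1 was not checked. Reads of an overlapping pair cannot be told apart if strand was not used in counting.

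Of the 4 enzyme genes further down the pathway, 2 rose by about the same amount and 2 did not pass. Pfkl, the liver-type phosphofructokinase, which catalyses the committed step, stood at 500.6 and 601.9 CPM in dCKO tissue, against 384.0, 364.1 and 464.0 CPM in controls. Tpi1, triosephosphate isomerase, stood at 483.6 and 572.8 CPM in dCKO tissue, against 377.9, 400.6 and 387.3 CPM in controls. For both genes the lowest dCKO library was above the highest control, and dCKO replicate 2 was the highest of all. Log2 fold changes were 0.45 for Pfkl (SE 0.12, edgeR adjusted p = 0.0342) and 0.44 for Tpi1 (SE 0.11, edgeR adjusted p = 0.0185). Both calls were lost without dCKO replicate 2 (log2 fold change 0.31 and 0.32, edgeR adjusted p = 0.283 and 0.215) and without control replicate 1 (0.170 and 0.109) or control replicate 2 (0.168 and 0.0602). Pfkl also lost its call in a fit corrected for GC content (log2 fold change 0.27, edgeR adjusted p = 0.160).

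Pgk1, phosphoglycerate kinase, an ATP-forming enzyme, stood at 126.5 and 171.0 CPM in dCKO tissue, against 166.1, 161.2 and 158.1 CPM in controls. The dCKO libraries were the lowest and the highest of the 5, while the controls lay close together. The log2 fold change of Pgk1 was −0.12 (95% interval −0.40 to 0.16, edgeR adjusted p = 0.649). It was 0.09 without dCKO replicate 1 and −0.35 without dCKO replicate 2, neither of which passed (edgeR adjusted p = 0.855 and 0.240). Ldha stood at 1153 and 1228 CPM in dCKO tissue, against 1063, 1047 and 1041 CPM in controls. Its groups did not overlap, but the difference was small, with a log2 fold change of 0.18 (95% interval −0.02 to 0.38, edgeR adjusted p = 0.281). The upper bounds for Pgk1 and Ldha lie below the lower bound for Slc2a1, 0.83. RefSeq lists 7 pseudogenes named after triosephosphate isomerase, 3 after Pgk1 and 3 after Ldha, none of which has a row of its own in the count table, so reads shared with such copies make the single values of Tpi1, Pgk1 and Ldha uncertain.

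Of the 2 hypoxia-responsive genes outside glycolysis, Ndrg1 rose and Vegfa did not pass the test. Ndrg1 encodes a cytoplasmic protein induced by low oxygen and other stresses. It had 119 and 200 reads in dCKO tissue, or 11.0 and 15.3 CPM, against 26, 13 and 28 reads in controls, or 3.42, 1.76 and 4.28 CPM. The lowest dCKO library was far above the highest control, and the control counts are so low that counting error is a large part of their spread. Ndrg1 had the largest change of the 10, with a log2 value of 2.07 (SE 0.31, edgeR adjusted p = 1.66e-04), a fold of 4.21. Vegfa stood at 67.6 and 65.5 CPM in dCKO tissue, against 46.8, 59.7 and 51.9 CPM in controls. Both dCKO libraries were above every control, though control replicate 2 came near them. The log2 fold change of Vegfa was 0.33 (95% interval 0.05 to 0.62), which excludes 0, but the gene did not pass after adjustment over all genes (edgeR adjusted p = 0.155).

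**Figure D2:**
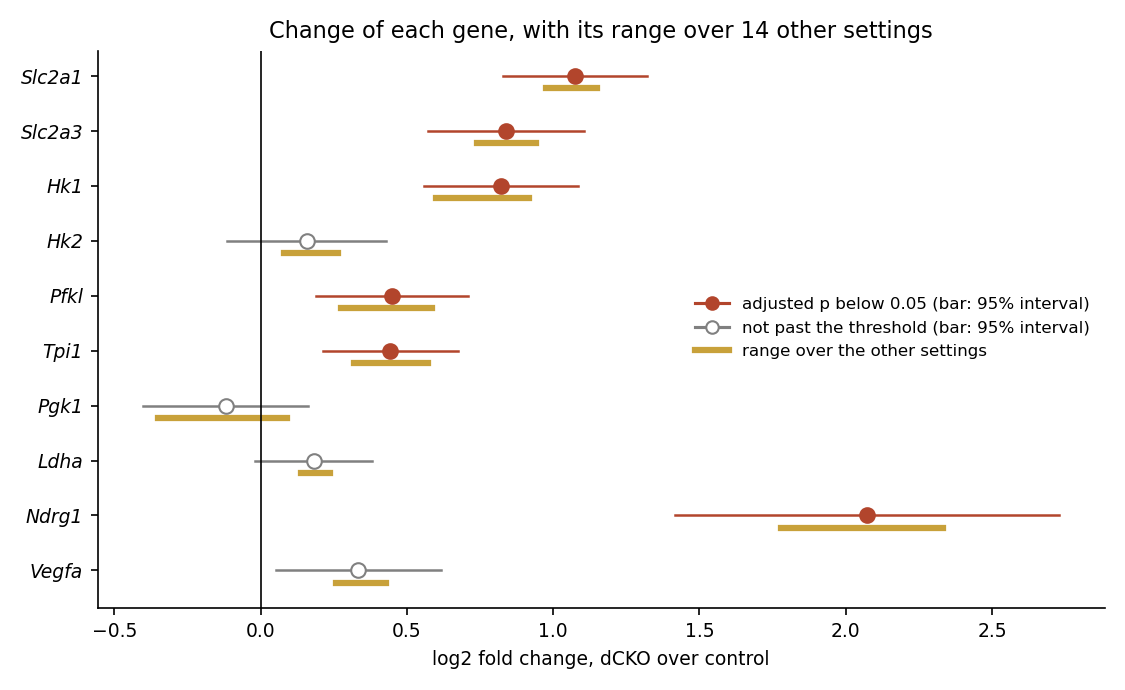
Log2 fold change of each of the 10 genes, dCKO over control, with its 95% interval (filled: adjusted p below 0.05; open: not past it) and, below each, the range over 14 other settings, including each library left out. Ndrg1 at 2.07 lies furthest from 0, and Pgk1 is the only gene whose range crosses 0.

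Slc2a1, Slc2a3, Hk1 and Ndrg1 passed the test in each of the 14 other settings. The authors' deposited table called 5 of the 10 higher at an adjusted p below 0.05, against 2.62% of its genes, and 0 lower, against 0.263%. The folds in the authors' deposited table were 2.14 for Slc2a1, 1.82 for Slc2a3, 1.80 for Hk1, 1.38 for Tpi1 and 4.10 for Ndrg1. Pfkl had a fold of 1.39 and an adjusted p of 0.0875 in the authors' deposited table.

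Levels of different genes were set side by side only per kilobase of the longest coding transcript in GENCODE M21. On that scale Ldha had the highest level and Ndrg1 the lowest in both groups. As reads may be shared with pseudogene copies, the places of Tpi1, Pgk1 and Ldha in this order are uncertain. Ldha stood at 656 ± 29.4 CPM per kb in dCKO tissue (SD, n = 2) and 579 ± 6.01 in controls (SD, n = 3), and Tpi1 followed at 329 ± 39.3 and 242 ± 7.12. Pfkl came next at 148 ± 19.2 CPM per kb in dCKO tissue and 108 ± 14.2 in controls. Slc2a1 stood at 86.7 ± 5.60 CPM per kb in dCKO tissue and 41.2 ± 2.43 in controls, and Pgk1 at 81.5 ± 17.2 and 88.7 ± 2.20. The mean ± SD ranges of Slc2a1 and Pgk1 therefore overlapped in dCKO tissue, while Pgk1 was the higher in controls. Slc2a3, at 67.1 ± 5.33 CPM per kb in dCKO tissue and 37.5 ± 4.56 in controls, overlapped Slc2a1 by its mean ± SD range in controls, and Pgk1 in dCKO tissue. Hk2 at 23.7 ± 1.81, Hk1 at 21.5 ± 1.85 and Vegfa at 19.3 ± 0.43 CPM per kb followed in dCKO tissue, where the mean ± SD range of Hk1 overlapped those of both others. In controls the order was Hk2 at 21.3 ± 2.69, Vegfa at 15.3 ± 1.88 and Hk1 at 12.1 ± 0.87 CPM per kb. Ndrg1 stood at 4.55 ± 1.06 CPM per kb in dCKO tissue and 1.09 ± 0.44 in controls.

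The rest of the glycolytic pathway was examined with a list of 19 genes, 17 of which passed the filter on low counts. Of these, 3 rose, 1 fell and 13 did not pass, with a median log2 fold change of 0.24, while 5.0% of all genes tested were called higher and 1.42% lower. Bpgm, bisphosphoglycerate mutase, which makes the 2,3-bisphosphoglycerate that tunes oxygen release by haemoglobin, stood at 149.5 and 111.6 CPM in dCKO tissue, against 52.8, 59.8 and 49.5 CPM in controls (log2 fold change 1.27, SE 0.14, edgeR adjusted p = 1.88e-06). Pfkfb4 and Pfkfb2 encode enzymes that set the level of fructose-2,6-bisphosphate, an activator of phosphofructokinase. Pfkfb4 averaged 22.8 ± 5.57 CPM in dCKO tissue (SD, n = 2) and 8.53 ± 2.71 CPM in controls (SD, n = 3), and Pfkfb2 15.5 ± 1.14 and 7.43 ± 0.87 CPM, log2 fold changes of 1.42 and 1.06 (edgeR adjusted p = 7.94e-04 and 0.00479). Eno3, the muscle-type enolase, fell to 84.4 ± 0.06 CPM in dCKO tissue (SD, n = 2), against 117.5 ± 4.70 CPM in controls (SD, n = 3), a log2 fold change of −0.48 (edgeR adjusted p = 0.0181). The call of Pfkfb2 was lost without dCKO replicate 2 (edgeR adjusted p = 0.0789) and that of Eno3 without either dCKO library (edgeR adjusted p up to 0.149). The 2 most abundant enzymes that did not pass were Pkm, at 1985 ± 61.8 CPM in dCKO tissue and 1784 ± 206 CPM in controls, and Aldoa, at 820.7 ± 175.5 and 618.5 ± 56.9 CPM (edgeR adjusted p = 0.0579). Aldoa passed in 4 of the 14 other settings.

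Among 14 other sugar and lactate carriers, 10 were tested, 2 rose and 0 fell (median log2 fold change 0.10). For this list and the next, the shares over all genes tested were 5.0% higher and 1.42% lower. Slc16a3, the lactate exporter MCT4, stood at 139.4 and 193.8 CPM in dCKO tissue, against 79.1, 80.1 and 107.2 CPM in controls (log2 fold change 0.91, SE 0.16, edgeR adjusted p = 6.30e-04). Bsg, basigin, the partner protein that brings lactate carriers to the cell surface and the Ok antigen of human red cells, averaged 401 ± 24.9 CPM in dCKO tissue (SD, n = 2) and 299.9 ± 10.4 CPM in controls (SD, n = 3), a log2 fold change of 0.42 (edgeR adjusted p = 0.0250). Its call was lost in 4 of 5 fits that left out a library (edgeR adjusted p up to 0.166) and after GC correction (0.222). The lactate carrier Slc16a1 (128.5 ± 8.52 and 129.7 ± 13.9 CPM) and the insulin-regulated glucose carrier Slc2a4 (15.8 ± 0.75 and 15.3 ± 2.52 CPM, dCKO and control) were the most abundant that did not pass. Of 12 tested genes for the entry of pyruvate into mitochondria, 1 rose and 0 fell (median −0.03). This was Pdk2, a kinase that switches off pyruvate dehydrogenase, at 23.8 ± 1.52 CPM in dCKO tissue and 11.0 ± 2.44 CPM in controls (log2 fold change 1.11, edgeR adjusted p = 0.00141). Cs, citrate synthase (398.9 ± 23.6 and 401.6 ± 25.4 CPM), and Pdha1 (175.5 ± 4.38 and 163.7 ± 19.9 CPM, dCKO and control) did not pass.

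A further list held 30 known HIF targets outside glycolysis, of which 26 were tested, 2 rose and 0 fell, with a median log2 fold change of 0.21. Both dCKO libraries lay above all controls in 11 of the 26 and below in 2, against 19.0% and 18.6% of all genes tested, and 5.0% of all genes were called higher. After GC correction 4 were called higher (Ddit4, Bnip3, Bnip3l and Pgm2), against 562 of all 12710 genes tested. With GC correction and the replicate block 7 were, then also Cited2, Ero1l and Kdm3a, against 750 of the 12710. With 1 library left out, 1 or 2 were. Ddit4, an inhibitor of mTORC1 signalling induced by low oxygen and by other stresses, stood at 82.8 and 88.2 CPM in dCKO tissue, against 27.9, 40.2 and 36.7 CPM in controls (log2 fold change 1.29, SE 0.15, edgeR adjusted p = 4.47e-06). Cited2, a HIF-induced inhibitor of HIF, averaged 73.1 ± 3.99 CPM in dCKO tissue (SD, n = 2) and 52.4 ± 3.97 CPM in controls (SD, n = 3), and its call (log2 fold change 0.48, edgeR adjusted p = 0.0279) was lost in 4 of 5 fits that left out a library (edgeR adjusted p up to 0.212) and after GC correction (0.0700). The most abundant HIF targets that did not pass were Egln1, a prolyl hydroxylase that marks HIF for degradation, at 146.6 ± 5.08 CPM in dCKO tissue and 134.9 ± 10.4 CPM in controls, and Bnip3l, a mitophagy receptor, at 140.0 ± 5.65 and 116.9 ± 16.6 CPM. Car9, Adm, Epo and Rora were below the filter, with at most 27 reads in any library.

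Of 14 genes of the oxygen sensing machinery, 2 rose and 1 fell (median log2 fold change −0.08), against 5.0% called higher and 1.42% lower over all genes tested. Hif3a, a HIF alpha subunit of which some forms inhibit the others, stood at 44.1 and 39.4 CPM in dCKO tissue, against 12.1, 16.0 and 8.25 CPM in controls (log2 fold change 1.78, SE 0.21, edgeR adjusted p = 5.72e-06). Hif1a averaged 147.6 ± 11.0 CPM in dCKO tissue (SD, n = 2) and 194.1 ± 25.9 CPM in controls (SD, n = 3) and did not pass (log2 fold change −0.40, edgeR adjusted p = 0.0866). Both dCKO libraries lay below all controls for Hif1a, and it was called lower in 3 of the 14 other settings. Hif1an, which hydroxylates HIF, did not pass either, at 162.0 ± 15.2 CPM in dCKO tissue and 167.9 ± 6.46 CPM in controls. Egln2, a prolyl hydroxylase, rose by 0.53 and Cul2, a ubiquitin ligase scaffold used by VHL, fell by 0.45 on the log2 scale (edgeR adjusted p = 0.0222 and 0.0459). Both calls were lost in 4 of 5 fits that left out a library (edgeR adjusted p up to 0.143 and 0.387) and after GC correction (0.139 and 0.211). Of 9 VEGF family ligands and receptors, edgeR called 0 and DESeq2 0, while limma-voom called 1 (Pgf). An unadjusted edgeR p below 0.05 was found for 3 of the 9, against 21.5% of all genes tested. Over the 14 other settings, Pgf was called higher in 5, Figf (Vegfd) higher in 2, Vegfc lower in 2 and Vegfb lower in 2. Nrp2, a VEGF co-receptor, averaged 137.2 ± 10.7 CPM in dCKO tissue and 110.5 ± 1.39 CPM in controls, and Vegfb 66.5 ± 5.74 and 74.5 ± 5.93 CPM. Of the other 3 NDRG family genes, 0 were called by edgeR, DESeq2 or limma-voom, but Ndrg3 was called higher with the replicate block and GC correction together. An unadjusted edgeR p below 0.05 was found for 1 of the 3, against the same 21.5%. Ndrg3 averaged 64.8 ± 9.12 CPM in dCKO tissue and 54.7 ± 4.12 CPM in controls, and Ndrg2 19.1 ± 3.77 and 13 ± 2.59 CPM.

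**Figure D3:**
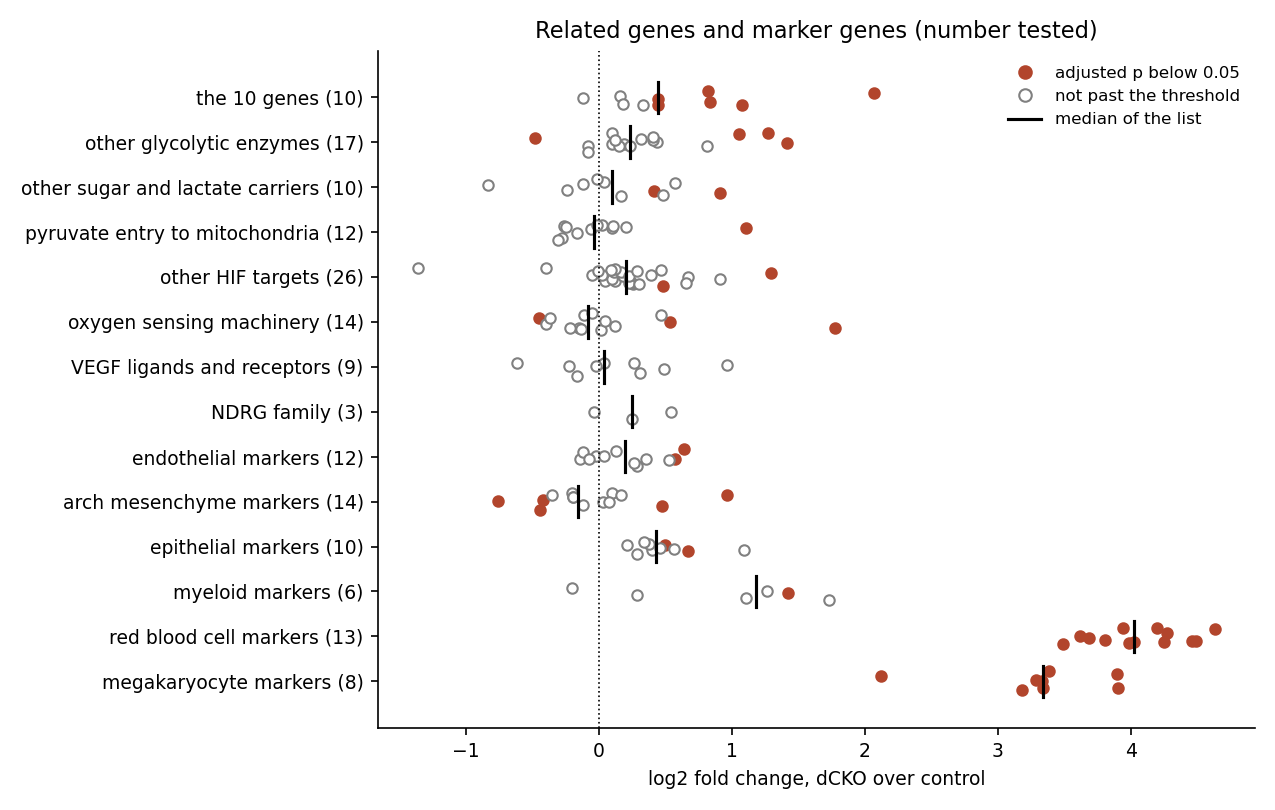
Log2 fold change, dCKO over control, of each tested gene of the 10, of 7 related lists and of 6 marker lists (number tested in brackets). Filled points passed an adjusted p of 0.05 and vertical lines are medians, which lie between −0.15 and 0.45 for the 10 genes and the related, endothelial, mesenchymal and epithelial lists, and at 1.19, 4.02 and 3.34 for myeloid cells, red cells and megakaryocytes.

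Red blood cell transcripts differed more between the groups than any of the 10 genes, with log2 fold changes of 3.49 to 4.63 against at most 2.07. All 13 tested red blood cell markers rose (median log2 fold change 4.02), with a summed level of 55970 to 80240 CPM in dCKO libraries and 3431 to 4445 CPM in controls. Hba-x, an embryonic alpha-type globin, averaged 36400 ± 7999 CPM in dCKO tissue and 2243 ± 370 CPM in controls, and Hbb-y, an embryonic beta-type globin, 17770 ± 6522 and 809.1 ± 101.2 CPM. Hba-a1 and Hbb-b1 of the same list had 0 reads in every library. The settings used to assign reads to genes were not given. Absent transcripts and reads lost in counting therefore cannot be told apart for these genes. All 8 tested megakaryocyte and platelet markers rose too, by 2.12 to 3.90 on the log2 scale (median 3.34), with a summed level of 110.8 to 205.5 CPM in dCKO libraries and 12.7 to 21.5 CPM in controls. Pf4 averaged 53.0 ± 19.1 CPM in dCKO tissue and 5.01 ± 2.96 CPM in controls, and Itga2b 47.4 ± 18.1 and 3.20 ± 0.94 CPM. Of 6 tested myeloid markers 1 rose and 0 fell, but the median log2 fold change was 1.19. An unadjusted edgeR p below 0.05 was found for 4 of the 6, against 21.5% of all genes tested. The marker that rose was Laptm5, at 13.4 ± 1.84 CPM in dCKO tissue and 4.995 ± 0.41 CPM in controls, and Csf1r averaged 5.95 ± 4.36 and 2.79 ± 1.32 CPM. The list summed to 21.9 to 37.6 CPM in dCKO libraries and 12.9 to 15.7 CPM in controls.

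Markers of endothelium, epithelium and mesenchyme had smaller medians than those of blood cells. Their calls stand beside shares of 5.0% higher and 1.42% lower over all genes tested. Of 12 endothelial markers 2 rose, Egfl7 and Cldn5, and 0 fell (median 0.20), summing to 349.6 to 396.2 CPM in dCKO libraries and 312.7 to 340.7 CPM in controls, with Cdh5 at 81.7 ± 13.5 and 74.7 ± 2.59 CPM and Kdr at 60.2 ± 6.46 and 58.4 ± 10.1 CPM. Of 10 epithelial markers 2 rose and 0 fell (median 0.43), Krt8 and Krt18. Both dCKO libraries lay above all controls in 8 of these 10 and 8 had an unadjusted p below 0.05, against 19.0% and 21.5% of all genes tested. These counts were like those of the 10 glucose and hypoxia genes (8 and 7). Krt18 averaged 103.8 ± 13.1 and 73.5 ± 11.3 CPM, dCKO and control, and Trp63 83.5 ± 4.68 and 68.3 ± 10.2 CPM. The list summed to 576.2 to 597.2 CPM in dCKO libraries and 389.3 to 504.8 CPM in controls. After GC correction 0 endothelial markers and 1 epithelial marker were called higher. The 14 markers of arch mesenchyme all passed the filter on low counts, with 2 higher and 3 lower (median −0.15) and sums of 2444 to 2599 CPM in dCKO libraries and 2617 to 2803 CPM in controls. Prrx1 fell to 490.5 ± 66.0 CPM in dCKO tissue, against 654.1 ± 69.7 CPM in controls, and Twist1 averaged 326.6 ± 61.7 and 304.3 ± 32.0 CPM. The targeted genes were lower in both dCKO libraries than in any control. Yap1 averaged 172.3 ± 3.30 CPM in dCKO tissue and 433.0 ± 106.6 CPM in controls (edgeR adjusted p = 1.31e-05). Wwtr1, the symbol of Taz, averaged 22.8 ± 0.06 and 56.5 ± 15.7 CPM (edgeR adjusted p = 1.56e-04). Control replicate 1 was the lowest control for both genes. Controls 1 to 3 stood at 311.8, 475.0 and 512.1 CPM for Yap1, and at 38.36, 65.06 and 66.15 CPM for Wwtr1.

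**Figure D4:**
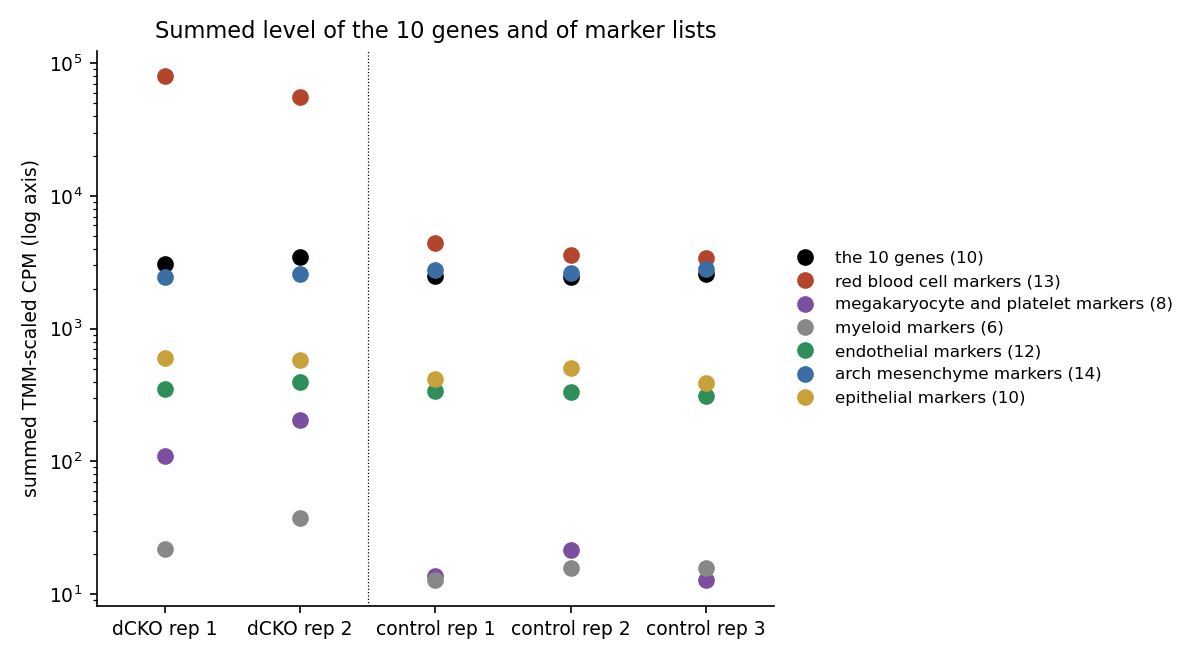
Summed TMM-scaled CPM (log axis) of the 10 genes and of 6 marker lists in each library, dCKO left of control (number of genes tested in brackets). The red blood cell sum is 80240 and 55970 CPM in dCKO replicates 1 and 2, in the opposite order to the megakaryocyte sum of 110.8 and 205.5 CPM.

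The 2 dCKO libraries differed from each other in the same direction for most of the 10 genes. The level was higher in dCKO replicate 2 than in dCKO replicate 1 for 9 of the 10, Vegfa being the exception. Over all genes tested, dCKO replicate 1 was above dCKO replicate 2 in 50.5%. The gap within dCKO was widest for Ndrg1 and Pgk1, which were 1.39-fold and 1.35-fold higher in replicate 2. It was narrow for Slc2a1, at 1.10-fold. Of the 13 red cell markers, 11 were higher in dCKO replicate 1, whereas all 8 megakaryocyte and all 6 myeloid markers were higher in dCKO replicate 2. In the related lists, 3 of 26 other HIF targets and 2 of 9 VEGF genes were higher in dCKO replicate 1. Nearer to the share over all genes were 4 of 10 other sugar and lactate carriers and 5 of 12 pyruvate entry genes. Also higher in dCKO replicate 1 were 6 of 17 other glycolytic enzymes, 5 of 14 oxygen sensing genes and 1 of 3 NDRG genes. So were 3 of 12 endothelial and 4 of 14 mesenchyme markers, but 6 of 10 epithelial markers. Each order rests on 1 library against 1 and has no replicate check.

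Genes outside all lists that followed the 10 most closely over the 5 libraries were found by the root mean square distance between centred log2 CPM profiles, among genes averaging at least 5 CPM. With 5 libraries of 2 groups such likeness is a description. Closest to Slc2a1 were Rbl2 and Jak3, at 0.08 and 0.09, and closest to Slc2a3 were Tnik and Tmem9b, at 0.05 and 0.06. Hk1 had Ston2 at 0.03 and Lmo7 at 0.07, Pfkl had Fzd10 and Piezo1 at 0.03 and 0.04, and Tpi1 had Maf1 and Robo4 at 0.05 each. Ndrg1 had no close neighbour, its nearest being Adcy7 at 0.19 and Reep6 at 0.21. Of the genes that did not pass the test, Hk2 was nearest to Ptprf and Crocc, Pgk1 to Proser1 and Atxn2, Ldha to Rad52 and Diap3, and Vegfa to Efhd2 and Ensa, at 0.01 to 0.04.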

How the data were processed

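The deposited files are the authors' raw counts of reads by gene symbol in 5 poly(A) RNA libraries, and a table of the authors' own comparison with a signal per gene (mean normalized counts), a fold change as a ratio, its log2 value, and p-values. The submitters' processing notes name DESeq 1.16.0, HTSeq 0.5.4p3 and mm9. The aligner's name, the settings of read assignment to genes and whether strand was used were not given in the sources used here. Per the labels' protocols, libraries were made with an Ion Total RNA-Seq kit after DNase treatment. Count columns headed WT were matched to the control titles by replicate number. Totals were 11346480 and 13298973 counts in dCKO replicates 1 and 2, and 7439419, 7190780 and 6491137 in control replicates 1 to 3. All were kept, since no 2 replicates were as close as sampling noise allows (chi-square of 4.37 to 14.6 per gene).

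The tests were run in edgeR 4.0.16 (R 4.3.3): filterByExpr (minimum count 10), TMM scaling, the quasi-likelihood F test (two-sided, 2 dCKO against 3 control libraries) and Benjamini-Hochberg adjustment over 12710 genes at 0.05. CPM are TMM-scaled. The SE of a log2 fold change is its size divided by the root of F. Alternatives were RLE scaling, scaling without red cell markers, DESeq2 1.42.0, limma-voom (limma 3.58.1), other filters, a GC offset (99.3% of tested genes matched to GENCODE M21), each library left out, and the replicate number as a block. The 10 genes and the lists were chosen with earlier results of these data known. Named besides them are, in each related list, the genes past the threshold and the 2 most abundant others, in each marker list the 2 most abundant, and for each of the 10 its 2 nearest profiles. Pgf, Car9, Adm, Epo, Rora, Figf, Vegfc, Bnip3, Pgm2, Ero1l, Kdm3a, Hba-a1, Hbb-b1, Egfl7, Cldn5 and Krt8 were named after their values were seen. Hbb-bh1 is named as part of the globin share.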

Additional observations from a re-analysis of the deposited data

How the results depend on the processing

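The number of the 10 genes called higher was 4 to 6 with a single library left out and 5 or 6 in every other setting, and 0 were lower in any. Of 140 fold changes of the 10 genes under other settings, 131 kept their direction and side of the threshold, 8 kept the direction but lost a call (5 for Pfkl, 3 for Tpi1), and 1 changed sign, Pgk1, which was 0.09 without dCKO replicate 1 and −0.351 without dCKO replicate 2, neither past the threshold. Over all genes, 403 to 950 were higher and 39 to 687 lower with 1 library left out, and 305 were lower with no filter on low counts. Of the 89 different genes tested in the related lists, 10 were higher and 2 lower, against 5.0% and 1.42% of all genes tested. With 1 library left out these counts were 6 to 12 and 0 to 5, and 6 of the higher genes (Bpgm, Ddit4, Hif3a, Pdk2, Pfkfb4 and Slc16a3) and 0 of the lower ones passed in all 5 such fits. With the stricter filter 1 related gene was lower. Fits without a dCKO library take the lone one to vary like the controls. The cause of these differences was not tested. Slc2a3's share of its pair's reads differed by −5.14 to −2.89 and Hk2's by −12.1 to −9.0 percentage points, dCKO minus control, with 1 library left out.

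No label pairs the libraries. The deviations of same-numbered libraries from their group means correlated at 0.175 for replicate 1 and −0.12 for replicate 2. The 10747 genes used are not independent. Deviations of the 2 dCKO libraries mirror each other, so these values are not 2 separate checks. With the numbers crossed, dCKO replicate 1 correlated at 0.12 with control replicate 2, and dCKO replicate 2 at −0.175 with control replicate 1. Whether the numbers pair the libraries cannot be told from such values. With the replicate number as a block, which leaves control replicate 3 without a partner, 1200 genes were higher and 921 lower, and 5 related genes lower. With the block and the GC offset together, 425 genes were lower and 17 related genes higher. The block changed no call of the 10 genes on its own.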
